A study of Homo sapiens with 4 samples.

Results

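The EGR, IER and NR4A immediate early genes were followed in HCT116, a widely used cell line from a human colorectal carcinoma. The set held 10 genes out of the 26255 in the expression tables: EGR1, EGR2, EGR3, IER2, IER3, IER5, NR4A1, KLF6, KLF10 and ZFP36. It was chosen by gene symbol, with earlier results of these data known. The KO group held 2 libraries of HCT116 cells in which C14orf159, now named DGLUCY and coding for a mitochondrial matrix protein, had been knocked out. The EV control group held 2 libraries of HCT116 cells transfected with an empty vector according to the labels, whereas the columns of those tables are named AAVS1, a site often edited as a neutral control. The KO columns are named sgDGLUCY. The labels give neither guide sequence nor clone, and nothing in them says that the libraries came from separate cultures. The p-values therefore rest on differences between libraries that may be technical. Expression was measured by RNA sequencing of poly(A)-selected RNA and is given in FPKM, a fragment count divided by transcript length and by a library total. How that total was set is not known here. The table headers do not name the unit, which was taken from the tool Cuffnorm in the submitters' processing notes and from the range of the values. The study asked why C14orf159 lowers migration, invasion and spheroid growth.

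Immediate early genes are transcribed within minutes of a growth factor, serum or stress stimulus, without the need for new protein synthesis. Signals through the RAF, MEK and ERK kinases reach serum response factor and its ETS-family partners at their promoters, and cAMP and calcium signals reach CREB. The EGR proteins are zinc-finger activators, NR4A1 is an orphan nuclear receptor, KLF6 and KLF10 are Krüppel-like zinc-finger factors, and ZFP36 binds AU-rich mRNAs and leads them to decay. In intestinal epithelial cells and their tumours this response follows receptor tyrosine kinase activity.

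Promoter sequences are shown for 4 members to set their start-proximal letters beside their expression, since EGR1 and EGR2 hold the serum response motif in this window and IER2 and KLF6 do not. RefSeq promoter windows (build GRCh38.p14, 250 bases before to 50 after a transcript start, written 5′ to 3′ on the gene's strand) were matched by symbol for 7 of the 10 members, in 10 windows. No window was used for EGR3, IER3 or KLF10. Capitals mark CArG boxes, the serum response factor motif, the cAMP response half-site TGACG on either strand (CGTCA when it lies on the other strand), and the EGR site GCGNGGGCG. The windows lie at chr5:138465229-138465528 (plus strand) for EGR1, chr10:62816317-62816616 (minus strand) for EGR2, chr19:13150161-13150460 (plus strand) for IER2 and chr10:3785160-3785459 (minus strand) for KLF6.
EGR1: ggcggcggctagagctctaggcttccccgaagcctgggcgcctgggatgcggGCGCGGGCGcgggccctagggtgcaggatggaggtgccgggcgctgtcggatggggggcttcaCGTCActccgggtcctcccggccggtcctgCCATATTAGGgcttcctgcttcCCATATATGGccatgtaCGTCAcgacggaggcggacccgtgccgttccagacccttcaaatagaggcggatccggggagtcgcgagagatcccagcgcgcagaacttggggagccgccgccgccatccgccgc
EGR2: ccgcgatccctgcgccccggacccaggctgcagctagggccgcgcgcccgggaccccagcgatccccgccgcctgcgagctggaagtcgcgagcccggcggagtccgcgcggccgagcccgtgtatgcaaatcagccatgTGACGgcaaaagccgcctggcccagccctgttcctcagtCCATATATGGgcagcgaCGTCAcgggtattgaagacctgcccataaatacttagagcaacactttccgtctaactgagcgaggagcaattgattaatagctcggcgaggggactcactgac
IER2: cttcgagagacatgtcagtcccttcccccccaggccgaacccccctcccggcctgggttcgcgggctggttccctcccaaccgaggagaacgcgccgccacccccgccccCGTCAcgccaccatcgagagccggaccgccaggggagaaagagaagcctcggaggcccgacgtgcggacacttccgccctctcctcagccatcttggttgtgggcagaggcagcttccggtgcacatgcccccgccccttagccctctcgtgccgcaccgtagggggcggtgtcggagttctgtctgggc
KLF6: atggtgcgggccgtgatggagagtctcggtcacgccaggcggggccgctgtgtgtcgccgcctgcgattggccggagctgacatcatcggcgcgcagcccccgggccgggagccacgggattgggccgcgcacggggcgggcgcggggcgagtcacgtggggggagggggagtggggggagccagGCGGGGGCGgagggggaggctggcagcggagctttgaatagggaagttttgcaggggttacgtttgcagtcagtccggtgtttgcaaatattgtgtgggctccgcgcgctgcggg

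The EGR1 window held 2 CArG boxes, CCATATTAGG and CCATATATGG, which begin 105 and 83 bases before the start. The EGR2 window shown, 1 of the 3 EGR2 windows, held CCATATATGG, beginning 71 bases before the start. These were the only 2 of the members' 10 windows with a CArG box, and those of IER5, NR4A1 and ZFP36 held none. Of all 35116 promoter windows, 1.29% held a CArG box and 0.0313% held at least 2. The half-site TGACG was present in the EGR1, EGR2 and IER2 windows shown, 3 of the members' 10 windows, against 24.6% of all windows. The full cAMP response element TGACGTCA was present in 1.85% of all windows and in none of the members' windows that were used. EGR1 and KLF6 each held 1 EGR site (9.43% of all windows), as did another window of EGR2. The ETS site CCGGAA occurred once each in the windows of IER2, IER5 and NR4A1 (17.2% of all windows). All motifs were searched on both strands. No motif overlapped another. A match describes letters only, and binding was not measured.

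The libraries were first checked against their labels. C14orf159 had 2.52 and 10.8 FPKM in KO replicates 1 and 2, against 16.2 and 16.4 FPKM in the EV controls, which missed the threshold (limma-trend, adjusted p = 0.314). The depth was estimated at 12.6 to 13.7 M fragments (mega) per library. The colorectal epithelial markers EPCAM, KRT8, KRT18, KRT19 and CDH1 summed to 3342 and 3704 FPKM in KO and to 3535 and 3362 FPKM in EV control libraries. In EPCAM and CDH1, 2 of these 5, both KO libraries lay above both controls, as in 26.5% of all tested genes. The groups overlapped for the keratins, which make up most of the sum, and 0 markers passed (limma-trend). No fibroblast, immune or endothelial marker passed 0.208 FPKM in any library, and COL1A2, DCN, LUM, PTPRC and CD3E were listed at 0 throughout. The KO libraries differed from each other more than the EV controls did, with a median gap of 0.17 between KO libraries and 0.07 between EV control libraries in log2(FPKM + 1) over the 12701 tested genes.

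EGR1, the prototype of its family and an activator of growth and differentiation genes, showed the largest difference among the 8 tested members. EGR1 had 23.7 and 39.9 FPKM in KO replicates 1 and 2, against 11.3 and 11.5 FPKM in the EV controls. Both KO libraries lay above both controls, and KO replicate 2 stood highest. The KO mean was 31.8 ± 11.5 FPKM and the EV control mean 11.4 ± 0.144 FPKM (SD, n = 2 libraries each), a ratio of 2.78. In log2(FPKM + 1), where adding 1 shrinks differences of weakly expressed genes, KO minus EV control was 1.35 (SE 0.25), and this did not pass the threshold over all tested genes (limma-trend with Benjamini-Hochberg adjustment, adjusted p = 0.183, unadjusted p = 0.00303). KO replicate 1 lay 0.99 and KO replicate 2 lay 1.72 above the EV control mean, whereas the EV controls lay 0.02 apart. The FPKM of EGR1 stand for roughly 934 and 1619 fragments in KO and 473 and 495 fragments in EV control libraries.

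EGR2, known for its role in myelin and immune cell programmes, and EGR3, its close relative, stood far below EGR1. EGR2 had 0.612 and 0.764 FPKM in KO replicates 1 and 2, against 0.450 and 0.377 FPKM in the EV controls. EGR3 had 0.413 and 0.783 FPKM in KO replicates 1 and 2, against 0.185 and 0.163 FPKM in the EV controls. In both genes the KO libraries lay above the controls, KO replicate 2 above KO replicate 1, the order also seen in EGR1. Neither reached 1 FPKM in any library, so neither was tested with the others. EGR3 rested on roughly 22.5 and 44.0 fragments in KO and 10.7 and 9.68 in EV control libraries, taking its longest transcript, so counting error is large for it. Without a filter on low values, EGR2 and EGR3 had differences of 0.25 (SE 0.08) and 0.43 (SE 0.13), and neither passed (limma-trend, adjusted p = 0.332 and 0.335).

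NR4A1, IER2 and ZFP36 followed the same order of libraries. NR4A1, also called NUR77, had 5.86 and 11.2 FPKM in KO replicates 1 and 2, against 4.67 and 4.24 FPKM in the EV controls. IER2, a nuclear protein tied to cell motility, had 66.9 and 97.2 FPKM in KO replicates 1 and 2, against 56.3 and 54.3 FPKM in the EV controls. ZFP36, also called tristetraprolin, had 38.3 and 53.0 FPKM in KO replicates 1 and 2, against 31.8 and 31.0 FPKM in the EV controls. In these 3 genes both KO libraries lay above both controls, and KO replicate 2 was the higher of them. The fitted differences were 0.75 (SE 0.28) for NR4A1, 0.54 (SE 0.19) for IER2 and 0.51 (SE 0.16) for ZFP36, and none passed (limma-trend, adjusted p = 0.299, 0.280 and 0.265). Without KO replicate 1 these were 1.17, 0.80 and 0.74, and without KO replicate 2 they were 0.33, 0.27 and 0.28.

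**Figure D1:**
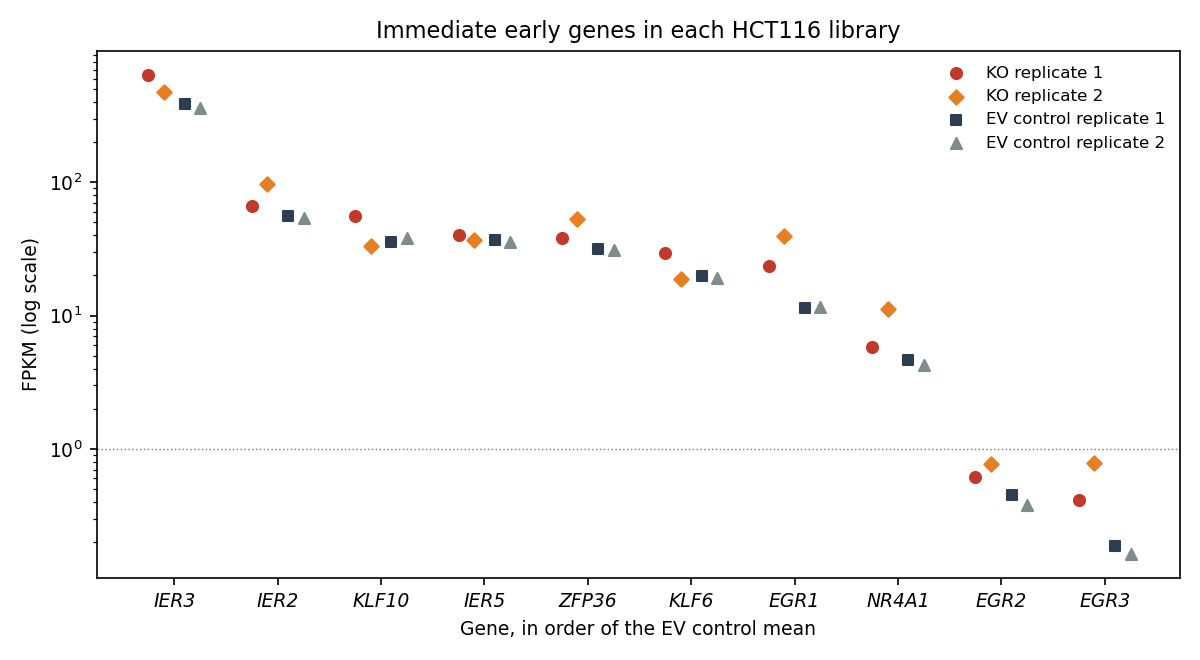
FPKM (vertical axis, log scale) of the 10 genes in the 2 KO libraries (left of each gene) and the 2 EV control libraries (right), one point per library, genes in order of the EV control mean; the dotted line marks 1 FPKM. EGR1 sits at 23.7 and 39.9 FPKM in KO and at 11.3 and 11.5 FPKM in EV control libraries, while EGR2 and EGR3 stay under 1 FPKM everywhere.

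IER3, an inhibitor of stress-induced cell death also called IEX-1, was the most abundant member and showed the opposite order of the KO libraries. IER3 had 642 and 477 FPKM in KO replicates 1 and 2, against 385 and 362 FPKM in the EV controls. Both KO libraries lay above both controls, with KO replicate 1 the highest. The difference was 0.57 (SE 0.17) and did not pass (limma-trend, adjusted p = 0.243). It was 0.35 without KO replicate 1 and 0.78 without KO replicate 2. IER5, a regulator of heat shock factor activity, had 40.4 and 37.19 FPKM in KO replicates 1 and 2, against 37.21 and 35.7 FPKM in the EV controls. The groups overlapped for IER5, whose difference of 0.09 (SE 0.08) was close to its own error (adjusted p = 0.625).

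The Krüppel-like factor genes lay on opposite sides of the EV controls in the KO libraries, KLF6 only narrowly so in KO replicate 2. KLF6, a tumour suppressor candidate in the gut and other epithelia, had 29.3 and 18.9 FPKM in KO replicates 1 and 2, against 19.9 and 19.1 FPKM in the EV controls. KLF10, a gene induced by TGF-beta, had 55.4 and 33.4 FPKM in KO replicates 1 and 2, against 35.5 and 38.2 FPKM in the EV controls. For both genes KO replicate 1 lay above the controls and KO replicate 2 below them, so the groups overlapped. KLF6 in KO replicate 2 was -0.045 from the EV control mean, where the EV controls lay 0.058 apart. Their differences were 0.26 (SE 0.21) for KLF6 and 0.22 (SE 0.24) for KLF10, and neither passed (limma-trend, adjusted p = 0.567 and 0.675). Without KO replicate 1 both differences turned negative, at -0.045 and -0.14.

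**Figure D2:**
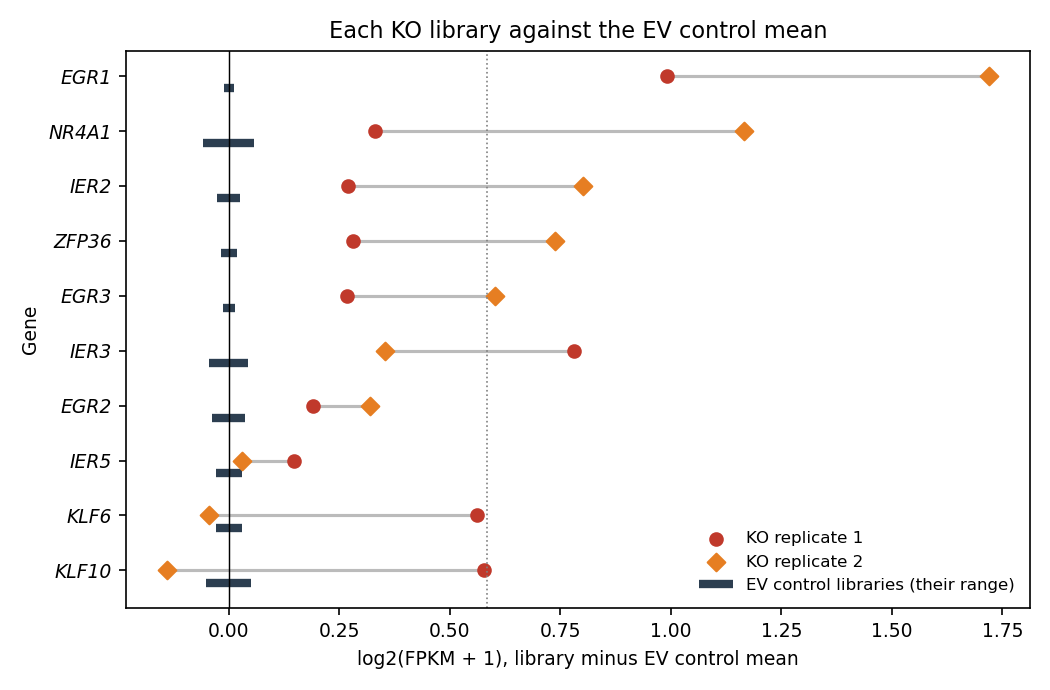
Difference of each KO library from the EV control mean (horizontal axis, log2(FPKM + 1)) for the 10 genes (rows, in order of KO replicate 2); circles are KO replicate 1, diamonds KO replicate 2, and the dark bars span the 2 EV control libraries. The dotted line marks 1.5-fold. EGR1 reaches 0.99 and 1.72, and KLF6 and KLF10 lie near the line in KO replicate 1 and just below 0 in KO replicate 2.

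Over the whole set, 0 of 8 tested members passed in either direction (limma-trend, adjusted p under 0.05), against 14 of all 12701 tested genes (0.0551% higher and 0.0551% lower). Without small RNA genes 0 of 12568 tested genes passed, with 2171 at an unadjusted p under 0.05. By unadjusted p under 0.05, EGR1, IER2, IER3, NR4A1 and ZFP36 were higher and 0 members lower, that is 5 of 8, with 9.23% higher and 7.22% lower among all tested genes. The same 5 had both KO libraries above both EV controls, and 0 members had both below, where 26.5% of all tested genes had both above and 25.6% both below. With EGR2 and EGR3 counted, 7 of the 10 members had both KO libraries above both controls. The 8 tested members exceeded 1 FPKM in every library, so the filter on low values did not select among the groups. Their median difference was 0.52, against 0.00 over all tested genes. Since the members were chosen with earlier results of these data known, these counts and shares describe the set and are no test of it. With 2 libraries per group, an exact permutation test of a single gene could not go below p = 0.333.

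Each KO library was then set against the EV control mean by itself, with folds taken in log2(FPKM + 1). KO replicate 1 was at least 1.5-fold above it for EGR1 and IER3, 2 of 8 tested members, against 3.49% of all tested genes. KLF10 and KLF6 lay just short of that line in KO replicate 1, at 0.58 and 0.56 where the line is at 0.585. In plain FPKM, without the added 1, KO replicate 1 stood at 1.504 and 1.501 times the EV control mean for these genes, just past 1.5-fold. KO replicate 2 was at least 1.5-fold above for EGR1, IER2, NR4A1 and ZFP36, 4 of 8, against 4.38% of all tested genes. No tested member was 1.5-fold below the EV control mean in either KO library, as were 2.32% of all tested genes in KO replicate 1 and 2.46% in KO replicate 2. In KO replicate 1 all 10 members lay above both EV controls. Of the 8 tested members all 8 did, as did 41.3% of all tested genes, with 42.8% below both. In KO replicate 2 this was so for 7 of 10, with KLF6 and KLF10 below both controls. Of the 8 tested members 5 lay above both, against 45.7% of all tested genes above and 41.4% below.

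The members also separated the KO libraries from each other, again in log2(FPKM + 1). KO replicate 2 was at least 1.5-fold above KO replicate 1 for EGR1 and NR4A1, 2 of 8 tested members, against 3.52% of all tested genes. KO replicate 1 was at least 1.5-fold above KO replicate 2 for KLF6 and KLF10, again 2 of 8, against 2.94% of all tested genes. The gap between the KO libraries had a median of 0.57 over the 8 members, and that between the EV controls 0.06. Over all tested genes these medians were 0.17 and 0.07. C14orf159 stood at 15.5% of the EV control mean in KO replicate 1 and at 66.2% in KO replicate 2, and its part in the order of the members was not tested.

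**Figure D3:**
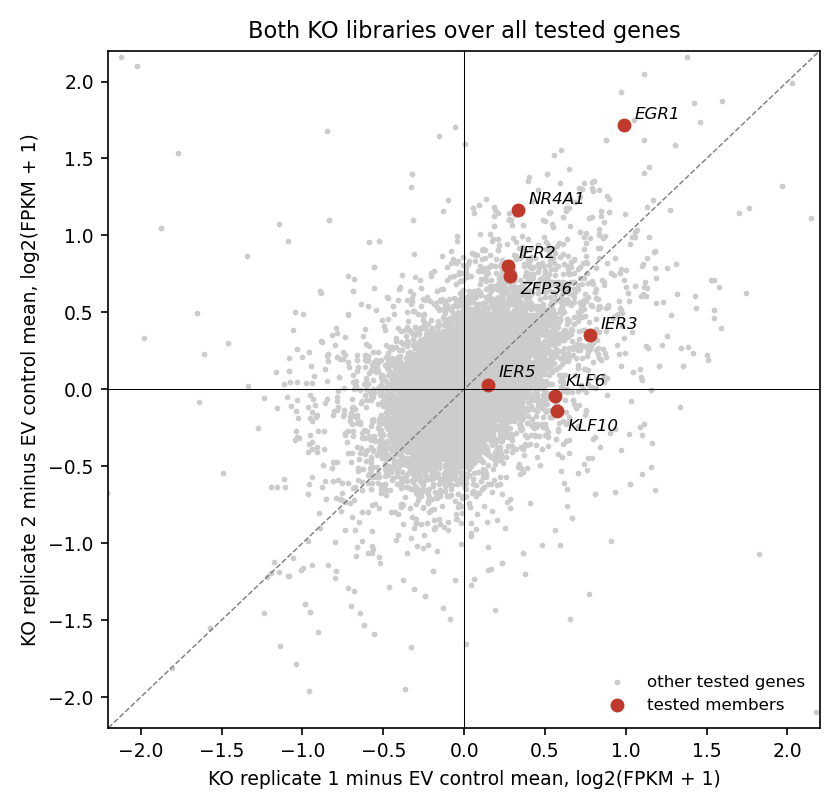
Difference from the EV control mean in KO replicate 1 (horizontal axis) and KO replicate 2 (vertical axis), both in log2(FPKM + 1), for the 12701 tested genes (grey) and the 8 tested members (red); the dashed line marks equal differences, and 67 genes lie outside the axes. EGR1, NR4A1, IER2 and ZFP36 lie above the dashed line, and IER3, IER5, KLF6 and KLF10 below it.

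Leaving out a KO library moved the calls. With KO replicate 2 as the lone KO library, whose spread is then taken from the EV controls, 5 of 8 members were higher (EGR1, IER2, IER3, NR4A1 and ZFP36), where 10.9% of all tested genes were, and 0 were lower (6.62% of all). With KO replicate 1 as the lone KO library, 6 of 8 were higher (EGR1, IER2, IER3, KLF6, KLF10 and ZFP36), where 6.29% of all tested genes were, and again 0 were lower (6.94% of all). These fits compare a lone library with the controls and carry no KO replicate error. EGR1 had adjusted p = 0.00114 in the fit with KO replicate 2 and 0.00452 in the fit with KO replicate 1 (limma-trend).

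The order of levels in the EV controls ran from IER3 (373 ± 16.1 FPKM) through IER2 (55.3 ± 1.43), KLF10 (36.9 ± 1.87), IER5 (36.4 ± 1.09), ZFP36 (31.4 ± 0.560), KLF6 (19.5 ± 0.581), EGR1 (11.4 ± 0.144) and NR4A1 (4.46 ± 0.308) to EGR2 (0.414 ± 0.0519) and EGR3 (0.174 ± 0.0158), all SD with n = 2. KLF10 and IER5 did not differ beyond their spread, and the libraries of every other pair of neighbours were separate. In KO replicate 2, EGR1 (39.9 FPKM) lay above IER5 (37.2), KLF10 (33.4) and KLF6 (18.9). In KO replicate 1, EGR1 (23.7 FPKM) remained below KLF6 (29.3). IER3, IER2, NR4A1 and EGR3 each overlap an annotated gene on the opposite strand (GENCODE release 29), and the sources used here do not say whether strand was used in counting, so reads of those partners could not be told apart from theirs.

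Paralogs of the members were compared as a list of 15 genes, of which 13 were tested. None passed (limma-trend). An unadjusted p under 0.05 fell on 2 higher and 0 lower genes (9.23% and 7.22% of all tested genes), and the median difference was 0.15. ZFP36L1, a decay factor related to ZFP36, had 62.8 and 80.1 FPKM in KO libraries, against 43.3 and 47.5 FPKM in EV controls (difference 0.63, adjusted p = 0.203). KLF9 had 4.97 and 6.40 FPKM in KO libraries, against 2.98 and 3.54 FPKM in EV controls (0.65, adjusted p = 0.208). In both genes the KO libraries lay above the controls. NR4A2 had 7.42 and 7.80 FPKM in KO libraries, against 5.96 and 6.61 FPKM in EV controls. IER5L had 60.3 and 70.7 FPKM in KO libraries, against 60.2 and 48.9 FPKM in EV controls. Both stood slightly higher in KO libraries with no pass of the test (adjusted p = 0.315 and 0.408). EGR4 was listed at 0 in KO replicate 1 and EV control replicate 1, and NR4A3 stayed under 1 FPKM, so neither was tested.

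Other immediate early genes gave differences in both directions. Of 31 listed genes 29 were tested and 0 passed (limma-trend). An unadjusted p under 0.05 fell on 5 higher and 2 lower genes (9.23% and 7.22% of all tested genes), and the median difference was 0.17. FOS, a partner in the AP-1 factor, had 6.86 and 31.4 FPKM in KO replicates 1 and 2, against 3.41 and 3.94 FPKM in the EV controls (difference 1.77, SE 0.66, adjusted p = 0.297). FOS thus shared with EGR1 the order of the libraries, with KO replicate 2 highest. JUN, its common partner, had 6.46 and 6.50 FPKM in KO libraries, against 5.81 and 5.08 FPKM in EV controls (adjusted p = 0.362). CSRNP1, a nuclear protein, had 4.71 and 5.61 FPKM in KO libraries, against 3.13 and 3.002 FPKM in EV controls (adjusted p = 0.188). HBEGF, a ligand of the EGF receptor, had 4.29 and 5.02 FPKM in KO libraries, against 3.32 and 3.20 FPKM in EV controls (adjusted p = 0.232). These genes lay above the controls in both KO libraries.

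On the other side, PLK2, a polo-like kinase gene, had 23.5 and 18.2 FPKM in KO libraries, against 35.4 and 35.5 FPKM in EV controls (difference -0.75, SE 0.13, adjusted p = 0.183). BTG2, an antiproliferative factor gene, had 18.6 and 15.1 FPKM in KO libraries, against 23.4 and 21.2 FPKM in EV controls (adjusted p = 0.264). Both KO libraries lay below both controls in these genes. MYC had 123 and 227 FPKM in KO replicates 1 and 2, against 203 and 187 FPKM in the EV controls, and the groups overlapped (adjusted p = 0.730). In limma-trend none of these genes passed, and 10 tested genes of the list had both KO libraries above both controls and 4 had both below, where 26.5% and 25.6% of all tested genes did.

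**Figure D4:**
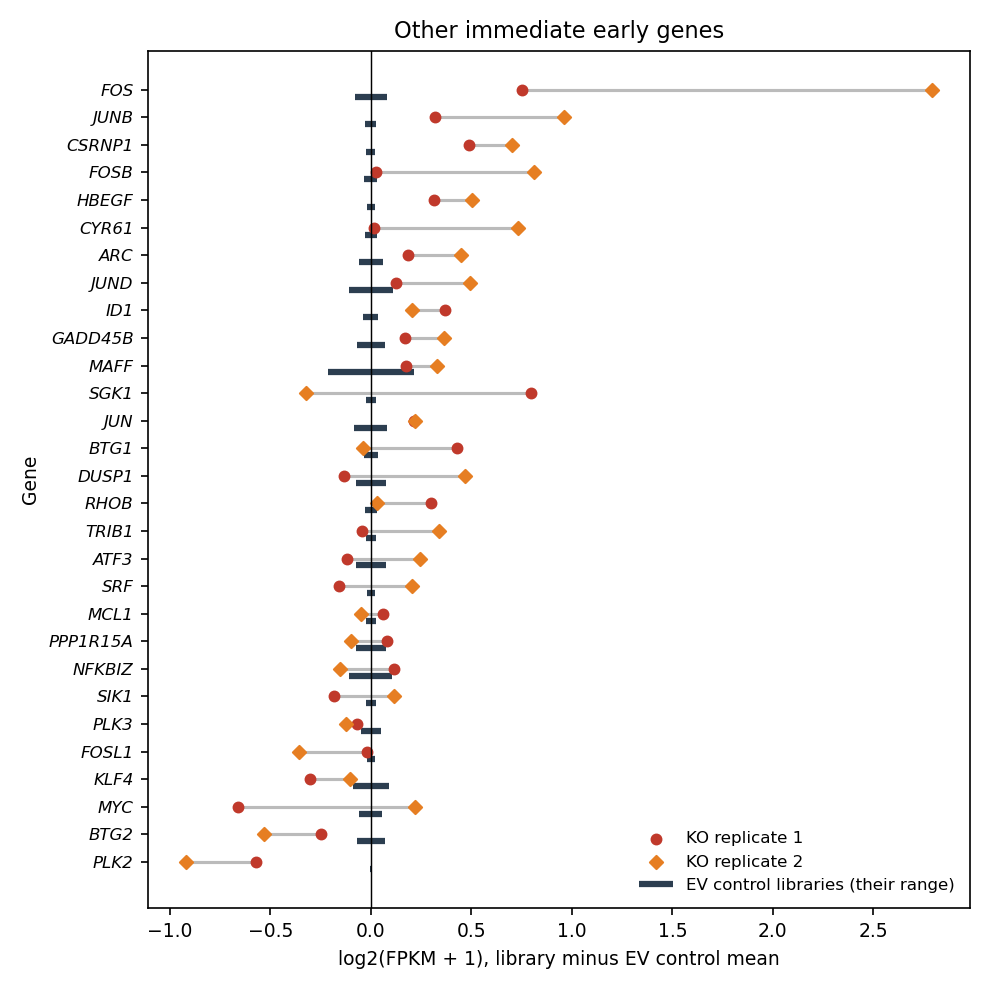
Difference of each KO library from the EV control mean (horizontal axis, log2(FPKM + 1)) for the 29 tested genes of the list of other immediate early genes, in order of the fitted difference; circles are KO replicate 1, diamonds KO replicate 2, dark bars span the 2 EV control libraries. FOS lies at 0.75 and 2.79, and PLK2 at -0.57 and -0.92.

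The kinases and transcription factors upstream of the response had a median difference of -0.047. All 22 listed genes were tested and 0 passed (limma-trend). An unadjusted p under 0.05 fell on 1 higher and 0 lower genes (9.23% and 7.22% of all tested genes). SRF, the serum response factor gene, had 14.2 and 18.5 FPKM in KO libraries, against 16.2 and 15.7 FPKM in EV controls (difference 0.02, SE 0.14, adjusted p = 0.947). ELK3, an ETS-family partner of serum response factor, had 30.0 and 24.8 FPKM in KO libraries, against 19.9 and 21.2 FPKM in EV controls (difference 0.39, adjusted p = 0.243). ATF1, a CREB relative, had 11.99 and 11.1 FPKM in KO libraries, against 13.4 and 13.2 FPKM in EV controls (adjusted p = 0.348). The RSK kinase gene RPS6KA2 had 5.70 and 3.03 FPKM in KO replicates 1 and 2, against 2.99 and 2.65 FPKM in the EV controls, and its relative RPS6KA1 had 29.4 and 29.2 against 27.3 and 26.5 FPKM. RPS6KA5, a further kinase gene, had 0.991 and 4.68 FPKM in KO replicates 1 and 2, against 2.72 and 2.64 FPKM in the EV controls. In this list KO replicate 2 was at least 1.5-fold above KO replicate 1 for 1 gene (3.52% of all tested genes). The reverse held for 2 genes (2.94% of all). Levels of these mRNAs say nothing of the kinases' activity, which was not measured.

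Partners of the EGR proteins and of ZFP36 were given as well. NAB2, a corepressor that binds EGR proteins and is itself induced by them, had 30.3 and 36.6 FPKM in KO libraries, against 25.3 and 23.95 FPKM in EV controls (difference 0.42, SE 0.12, limma-trend adjusted p = 0.230). NAB1, the other corepressor, had 15.1 and 10.97 FPKM in KO libraries, against 9.32 and 11.2 FPKM in EV controls, and the groups overlapped. Among 10 genes of the ZFP36 decay pathway, which recruits the CCR4-NOT deadenylase, 0 passed (limma-trend). An unadjusted p under 0.05 fell on 1 higher and 1 lower gene (9.23% and 7.22% of all tested genes). MAPKAPK2, the kinase that restrains ZFP36, had 26.4 and 25.6 FPKM in KO libraries, against 22.2 and 21.3 FPKM in EV controls. CNOT1, the scaffold of the deadenylase, had 34.3 and 33.8 FPKM in KO libraries, against 39.0 and 41.3 FPKM in EV controls. CNOT8 and CNOT2, subunits of that complex, had KO means of 32.01 and 26.2 FPKM and EV control means of 29.1 and 23.6 FPKM.

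Genes of the heat shock response, which reports on stress to the cells, had a median difference of -0.14. Of 9 genes 0 passed (limma-trend). An unadjusted p under 0.05 fell on 1 higher and 0 lower genes (9.23% and 7.22% of all tested genes). Both KO libraries lay above both controls in 2 genes and below both in 6, where 26.5% and 25.6% of all tested genes did. HSPH1, a chaperone gene, had 61.3 and 63.7 FPKM in KO libraries, against 42.5 and 46.5 FPKM in EV controls (limma-trend, adjusted p = 0.178). HSPD1, HSPB1 and HSPA8 had KO means of 798, 619 and 1186 FPKM and EV control means of 1032, 475 and 1377 FPKM. The list summed to 2963 and 3702 FPKM in KO and to 3662 and 3694 FPKM in EV control libraries, and its part in the members' values was not tested.

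The genes whose deviations from the EV control mean lay nearest to those of EGR1 over the 4 libraries were TESC, TNNC1, NMB, TRNP1 and FAM71E1, among 9220 genes that averaged 5 FPKM or more. TESC had 13.8 and 23.0 FPKM in KO replicates 1 and 2, against 5.83 and 6.46 FPKM in the EV controls, at a Euclidean distance of 0.0979 in log2(FPKM + 1). TRNP1 had 34.3 and 67.9 FPKM in KO replicates 1 and 2, against 17.5 and 16.6 FPKM in the EV controls. Their fitted differences lay between 1.25 and 1.45, and none passed (limma-trend, adjusted p from 0.116 to 0.202). The 4 libraries are few points, and this likeness is a description.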

How the data were processed

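Values per gene symbol were used as deposited by the authors, 1 library per file, with no count of reads; the unit, FPKM, was inferred from Cuffnorm and the values, since the deposited headers do not name it. TopHat2 2.0.13, Bowtie2 2.2.3, SAMtools 0.1.19, Cuffnorm 2.2.1 were the tools, and hg19 the genome build, per the submitters' processing notes. RNA was prepared with a miRNeasy kit and a stranded TruSeq mRNA kit per the labels' protocols. The sources used here do not give the annotation or how libraries were scaled. Values entered the fit as log2(FPKM + 1) for the 12701 genes that reached 1 FPKM in at least 2 of 4 libraries. Differences, KO minus EV control, were fitted with limma 3.58.1 under R 4.3.3, taking a mean-variance trend and group alone as a term. The script was tested on simulated data with the same spread in both groups. That check does not cover the wider spread between the KO libraries. P-values were Benjamini-Hochberg adjusted over all tested genes at a threshold of 0.05.

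Depth was estimated from the FPKM that 1 fragment gives in 2008 genes with a single GENCODE transcript, and is rough. The members and all lists were chosen with earlier results of these data known. All members were named, and of the other lists up to 4 genes with the smallest p-values, with FOS, JUN, MYC, SRF and NAB2. JUN and MYC and the genes at 0 are given whatever their p, and RPS6KA5 for the gap between its KO libraries. Epithelial markers and some list members are given as sums or means. SRF and KLF4 belong to 2 lists each. Alternatives were other pseudocounts, filters, scalings and limma settings, a replicate block, no small RNA genes, and each library left out in turn. A further gene upstream of the response is not in the list of 22 and is not reported here.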

Additional observations from a re-analysis of the deposited data

How the results depend on the processing

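With all 4 libraries, no alternative gave a member a call or turned its direction, and over those alternatives and the fits without an EV control the difference of EGR1 stayed between 1.34 and 1.42, with adjusted p from 0.104 to 0.954. Of 112 member values under alternatives 99 kept call and direction, 11 passed the threshold newly and 2 reversed, all of these in fits with a lone KO library. With a library left out, KLF6 ranged from -0.045 to 0.56 and KLF10 from -0.14 to 0.58, negative without KO replicate 1. The count of genes called was 14 with limma-trend, 6 without a filter on low values, 8 in limma without the trend and 0 without small RNA genes, and it ranged from 11 to 2222 with a library left out. At an unadjusted p under 0.05, 2089 genes differed, and 2171 without small RNA genes. With a library left out, the median difference of the members ranged from 0.45 to 0.55. Members outside the EV control range numbered 5 to 8, but a lone library in a group leaves fewer values that have to lie apart. For the fits without an EV control, the share over all tested genes was not taken. Without KO replicate 1, 5 lay above and 2 below that range, against 45.7% and 41.4% of all tested genes. Without KO replicate 2, 8 lay above and 0 below, against 41.3% and 42.8% of all tested genes. The cause of these moves was not tested beyond the lone library's spread being taken from the EV controls. The replicate numbers are not stated to pair the libraries, and same-numbered deviations had a correlation of -0.00455 over genes. The replicate block gave 12 called genes and 0 called members, with EGR1 at adjusted p = 0.104. Depth limits EGR2 and EGR3, which rest on few fragments.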
